A study of Mus musculus with 9 samples.

Results

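The genes described here are 53 interferon-induced genes of the mouse, taken by name from the deposited table of counts per gene, which lists 48663 entries. They comprise 34 genes of the antiviral class (effectors, RNA and DNA sensors and their regulators), 13 GTPases known chiefly for their induction by interferon-gamma, 3 interferon-induced transmembrane (IFITM) genes and 3 genes of antigen processing. The list was given by gene name, and all 53 were found. RNA was sequenced from virus-specific T cells sorted from the spleens of mice at day 30 of infection with lymphocytic choriomeningitis virus (LCMV, Armstrong strain), in 3 groups of 3 libraries. CD4 control cells bound the GP66:I-Ab tetramer and came from Ox40-Cre- mice. CD4 ThpokAD cells bound the same tetramer and came from Ox40-Cre+ Thpokfl/fl mice, in which Cre under the control of Ox40, a gene of activated T cells, deletes the gene of Thpok (Zbtb7b), the transcription factor of the CD4 lineage. CD8 control cells bound the GP33:H-2Db tetramer and came from Ox40-Cre- mice. Every group was infected and taken at the same day, and no uninfected cells were analysed here, so the values are levels at a memory time point and not responses to interferon. Only the CD4 ThpokAD mice carried Cre, so the effects of Cre itself and of Thpok deletion cannot be told apart, and lineage, viral peptide and tetramer cannot be told apart between CD8 and CD4 cells.

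Interferons of type I signal through the receptor made of Ifnar1 and Ifnar2 and act on genes that carry the interferon-stimulated response element (ISRE), which Irf9 helps to bind. Interferon-gamma signals through Ifngr1 and Ifngr2 and acts on genes that carry the gamma-activated site (GAS). The antiviral effectors act on viral RNA, translation and budding, whereas the immunity-related GTPases (IRG) and the guanylate-binding proteins (GBP) act mainly on the vacuoles of intracellular pathogens, and T cells express members of both classes.

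Promoter letters are shown first because 4 of the GTPases carry an arrangement of these elements found in few other windows. RefSeq windows of the GRCm38.p6 build, from 250 bases before to 50 bases after each start site, were found for 41 of the 53 genes, one of them (Pydc3) under its RefSeq name Ifi208. No window was matched for Ifi27l2a, Mx1, Oas2, Usp18, Rtp4, Dhx58, Parp9, Parp14, Zbp1, Iigp1, Gbp4 and Gbp6. The ISRE was searched on both strands as GAAA, any 2 bases and GAAA, and the GAS as TTC, any 3 bases and GAA, whose reverse complement is the same pattern. A match is a description of letters and not a bound site. In the stretches below, 5′ to 3′ on the strand of the gene, capitals mark these letters. The stretches lie at chr11:48992294-48992354 on the minus strand (Tgtp1), chr11:49064253-49064313 on the minus strand (Tgtp2), chr11:58199491-58199551 on the plus strand (Igtp), chr11:58214882-58214942 on the plus strand (Irgm2), chr11:48871415-48871470 on the minus strand (Irgm1), chr3:142530210-142530312 on the plus strand (Gbp7), chr3:142620584-142620633 on the plus strand (Gbp2), chr4:156200855-156200916 on the minus strand (Isg15), chr19:34640765-34640833 on the plus strand (Ifit1) and chr7:78913331-78913379 on the plus strand (Isg20).
Tgtp1: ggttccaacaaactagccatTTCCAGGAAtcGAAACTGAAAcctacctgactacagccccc
Tgtp2: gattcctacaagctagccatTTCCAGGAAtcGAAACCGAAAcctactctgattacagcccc
Igtp: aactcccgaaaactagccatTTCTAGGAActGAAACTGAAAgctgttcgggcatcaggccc
Irgm2: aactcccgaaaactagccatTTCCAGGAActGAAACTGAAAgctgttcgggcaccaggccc
Irgm1: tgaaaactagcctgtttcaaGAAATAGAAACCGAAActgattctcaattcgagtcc
Gbp7: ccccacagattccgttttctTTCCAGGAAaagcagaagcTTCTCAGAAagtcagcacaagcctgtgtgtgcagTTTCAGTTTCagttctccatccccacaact
Gbp2: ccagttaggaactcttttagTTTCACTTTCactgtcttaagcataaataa
Isg15: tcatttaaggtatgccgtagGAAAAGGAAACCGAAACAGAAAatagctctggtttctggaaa
Ifit1: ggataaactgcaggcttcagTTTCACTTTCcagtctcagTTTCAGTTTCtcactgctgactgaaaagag
Isg20: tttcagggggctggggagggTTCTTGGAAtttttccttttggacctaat

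The first 4 stretches, of the GTPases Tgtp1, Tgtp2, Igtp and Irgm2, hold a GAS followed after 2 bases by an ISRE. That joined pattern was found, on either strand, in 5 of all 32851 windows (0.0152%). These are the windows of these 4 genes and of Gm12185, a gene model that overlaps Tgtp1 on the same strand in the GENCODE annotation. The spacing of 2 bases was read from these 4 stretches, so the matches in them were fixed by the choice of pattern. Over their 61 bases, Igtp and Irgm2 were identical at 59 positions and Tgtp1 and Tgtp2 at 47, so the 4 stretches are not separate cases. The stretch of Irgm1 holds 2 overlapping ISRE matches and that of Isg15 holds 3, those of Gbp2 and Ifit1 hold ISRE letters on the other strand, and that of Isg20 holds a GAS alone. ISRE letters were present in the windows of 24 of the 41 members (58.5%), against 3.99% of the 27025 genes with a window. GAS letters were present in 39.0% of members, against 9.55% of genes. Among the GTPases, 9 of 10 had ISRE letters (90.0%) and 6 of 10 had GAS letters, and Ifi47 had neither in its window. Among the antiviral members, 13 of 25 had ISRE letters (52.0%) and 8 of 25 had GAS letters (32.0%).

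Library totals were 16664474 to 38981516 counts. Zbtb7b, the targeted gene, was at 38.5, 47.6 and 48.9 CPM in CD4 control and 0.698, 0.875 and 0.849 CPM in CD4 ThpokAD. In CD8 control it was at 24.04, 19.4 and 18.8 CPM. Tnfrsf4 (Ox40), under whose control Cre was placed, was at 326 to 432 CPM in CD4 control and 59.7 to 107 CPM in CD4 ThpokAD. In CD8 control Tnfrsf4 was at 0.418 to 2.28 CPM. The cause of the lower Tnfrsf4 level in CD4 ThpokAD was not tested. Among the coreceptor genes, Cd4 was at 1295 to 1409 CPM in CD4 control, 551 to 679 CPM in CD4 ThpokAD and 0.222 to 2.26 CPM in CD8 control. Cd8a was at 2.74 to 4.195, 34.2 to 64.5 and 743 to 913 CPM and Cd8b1 at 13.6 to 25.1, 40.7 to 70.2 and 2086 to 2920 CPM, in the same order of groups. Cd8a and Cd8b1 were higher in CD4 ThpokAD than in CD4 control (15.3-fold and 3.08-fold, edgeR adjusted p = 0.000286 and 0.0178). Every CD4 ThpokAD library was below every CD4 control library in Cd4, without passing the test (adjusted p = 0.241). The spread used in that test was fitted over all 9 libraries, with the CD8 control libraries near 0 for Cd4. The effect of this on the Cd4 test was not examined. Transcripts of 12 T cell marker genes were present in every group. Of 12 markers of dendritic cells and MHC class II, 4 were called lower in CD8 control than in CD4 control, beside 6.55% of all genes tested. Called higher in CD4 ThpokAD than in CD8 control were 4, beside 4.63% of all genes tested. The summed level of the 12 markers was 828 to 1562 CPM in CD4 control, 827 to 1747 CPM in CD4 ThpokAD and 252 to 378 CPM in CD8 control. Most of the sum came from Cd74, H2-Ab1, H2-Aa and H2-Eb1, with means of 582, 244, 148 and 104.5 CPM in CD4 control. In CD8 control against CD4 control, 8 of the 10 markers tested had negative and 2 positive log2 fold changes. Xcr1 had means of 10.1 CPM in CD4 control and 13.2 CPM in CD8 control. Siglech, which marks plasmacytoid dendritic cells, was at 0 in 8 of the 9 libraries and at 0.0418 CPM in the other. In CD4 control, CD4 ThpokAD and CD8 control, summed myeloid markers were at 217 to 327, 370.5 to 482 and 133 to 415 CPM. In the same order, natural killer markers were at 21.2 to 24.4, 151 to 237 and 233 to 274 CPM. Cell cycle genes were at 399 to 538, 1347 to 1919 and 366 to 579 CPM. The natural killer list was Ncr1, Klrb1c, Klra8, Klra4, Klre1, Eomes, Itga2 and Cd244a, of which 7 had an entry. These sums are of transcripts and do not count cells, and the cells that held the transcripts were not identified. The part of other cells in the results below was not tested.

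Counts were scaled to library size as CPM, the count of a gene per 1000000 counts of its library, and differences were tested with edgeR's quasi-likelihood test over 15738 genes. Genes with a Benjamini-Hochberg adjusted p under 0.05 are called, and rose or fell below is used of called genes only. Of the 53 members, 52 passed the filter on low counts and were tested. Between CD4 ThpokAD and CD4 control, 2 members were called higher and 6 lower in CD4 ThpokAD. Over all genes tested, 1.81% were called higher and 0.928% lower in that comparison. Between CD8 control and CD4 control, 12 members were called higher and 5 lower in CD8 control, beside 5.13% and 6.55% of all genes. Between CD4 ThpokAD and CD8 control, 3 members were called higher and 9 lower in CD4 ThpokAD, beside 4.63% and 1.91% of all genes. Of the 8, 17 and 12 calls, 1, 11 and 8 held whichever of the 9 libraries was left out. Leaving out any CD4 library left 0 or 1 members higher and 1 to 3 lower between the CD4 groups, and leaving out CD8 control replicate 2 left 1 higher. The count higher in CD4 ThpokAD than in CD8 control became 1 without any CD4 control library or without CD8 control replicate 1 or 2. The members' median log2 fold change was -0.05, 0.37 and -0.42 in the 3 comparisons, and that of all genes tested was 0.00, 0.01 and -0.01. These comparisons share libraries, so the same control values enter more than 1 of them. With library totals alone in place of the trimmed mean of M-values (TMM) scaling, the median of all genes shifted by 0.11 between CD8 and CD4 control, and the members' median there became 0.47. The same change turned the split of all calls in that comparison from 808 higher and 1031 lower to 1140 higher and 879 lower. In CD4 ThpokAD against CD8 control it turned the split from 729 and 301 to 631 and 423. In bulk RNA, fewer cells that express a gene and less RNA per cell cannot be told apart.

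**Figure D1:**
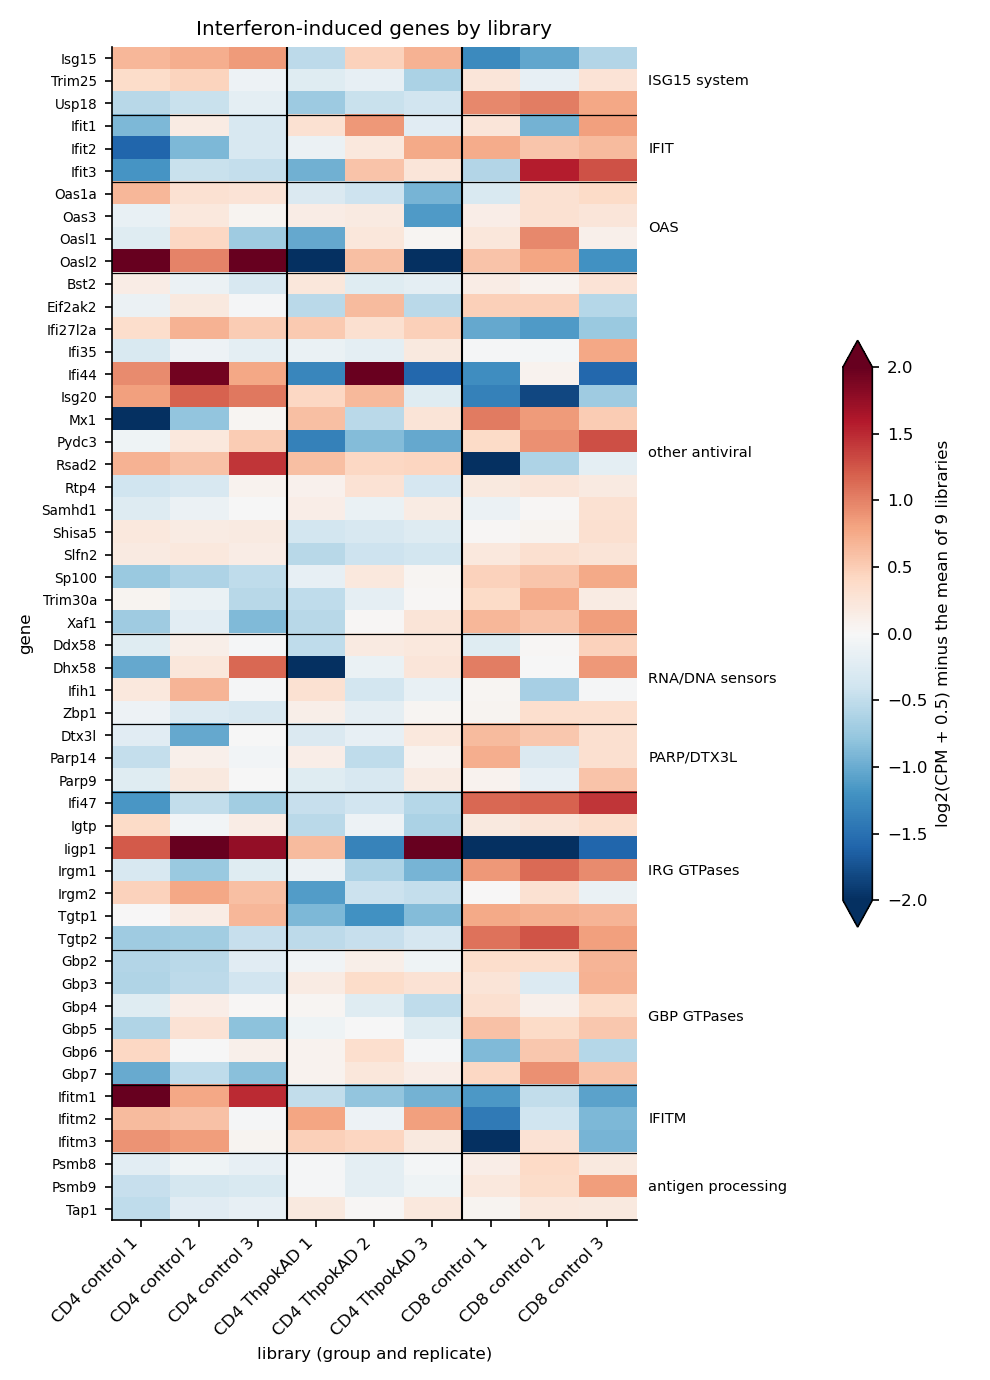
Levels of the 52 tested interferon-induced genes (vertical axis, grouped by role) in the 9 libraries (horizontal axis). Colour gives log2(CPM + 0.5) minus the mean of the gene over the 9 libraries and is capped at 2 in either direction. The CD8 control libraries stand highest for Ifi47, Irgm1, Tgtp2 and Usp18 and lowest for Isg20, Iigp1 and Ifi27l2a.

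Among the IRG GTPases, the CD8 control cells held the highest levels of Ifi47, Irgm1 and Tgtp2, while the levels of these genes in the 2 CD4 groups overlapped or lay close together. In all, 3 of 7 IRG genes rose and 1 fell in CD8 control against CD4 control, beside 5.13% and 6.55% of all genes tested. In CD4 ThpokAD against CD8 control, 1 rose and 4 fell, beside 4.63% and 1.91% of all genes tested. Ifi47, an effector GTPase also known as Irgd, lies at chr11:49076587-49096974 (mm10, plus strand). Its level was 88.8, 142 and 123 CPM in the CD4 control libraries, 144, 153 and 134 CPM in the CD4 ThpokAD libraries and 444, 451 and 535 CPM in the CD8 control libraries. Every CD8 control library was above every CD4 library, and the ranges of the 2 CD4 groups overlapped. The level was 4.04-fold higher in CD8 control than in CD4 control (log2 fold change 2.02, SE 0.18, adjusted p = 0.000152) and 3.32-fold lower in CD4 ThpokAD cells than in CD8 control (adjusted p = 0.000603). CD4 ThpokAD and CD4 control did not pass the test (log2 fold change 0.28, adjusted p = 0.506).

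Irgm1 lies on the minus strand at chr11:48861968-48871683 and encodes a regulatory IRG protein that keeps the effector GTPases inactive on the cell's own membranes. Its level was 68.03, 50.4 and 71.9 CPM in the CD4 control libraries, 78.5, 54.8 and 44.3 CPM in the CD4 ThpokAD libraries and 155, 187 and 164 CPM in the CD8 control libraries. The CD4 groups overlapped, and both lay below all CD8 control libraries. Irgm1 was 2.66-fold higher in CD8 control than in CD4 control (log2 fold change 1.41, SE 0.23, adjusted p = 0.00469) and 2.85-fold lower in CD4 ThpokAD cells than in CD8 control (adjusted p = 0.00582).

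Tgtp2 and Tgtp1 are neighbouring near-copies at chr11:49057194-49064206 and chr11:48985327-48994172 that encode an effector GTPase of T cells and macrophages, also known as Irgb6. Tgtp2 was at 35.2, 35.3 and 41.6 CPM in the CD4 control libraries, 39.96, 41.8 and 45.7 CPM in the CD4 ThpokAD libraries and 123, 139 and 102 CPM in the CD8 control libraries. It rose 3.24-fold in CD8 control against CD4 control (log2 fold change 1.7, SE 0.16, adjusted p = 0.000244), fell 2.85-fold in CD4 ThpokAD against CD8 control (adjusted p = 0.000862), and the CD4 groups overlapped (adjusted p = 0.672). Tgtp1 was at 9.44, 10.4 and 15.2 CPM in the CD4 control libraries, 4.79, 3.77 and 4.88 CPM in the CD4 ThpokAD libraries and 16.2, 15.6 and 15.4 CPM in the CD8 control libraries. The CD4 ThpokAD libraries were the 3 lowest, 2.601-fold below CD4 control (log2 fold change -1.38, SE 0.30, adjusted p = 0.0497), and this call was lost when any of the 9 libraries was left out (range of adjusted p 0.0571 to 0.157). Tgtp1 was 3.51-fold lower in CD4 ThpokAD cells than in CD8 control (adjusted p = 0.00942). Of all stretches of 50 bases in the Tgtp1 transcripts, 89.4% also occurred in Tgtp2, so the division of reads between the copies is uncertain. With their counts summed, the pair was at 44.6, 45.7 and 56.7 CPM in CD4 control, 44.7, 45.6 and 50.6 CPM in CD4 ThpokAD and 139, 154 and 118 CPM in CD8 control. The sum was 2.79-fold higher in CD8 control than in CD4 control (adjusted p = 0.000516). It was 2.92-fold lower in CD4 ThpokAD cells than in CD8 control (adjusted p = 0.00074). The CD4 groups differed by a log2 fold change of -0.06 (SE 0.16, adjusted p = 0.914). Most of the summed counts were those of Tgtp2. The sum therefore cannot show whether the lower Tgtp1 value in CD4 ThpokAD came from the division of reads.

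Irgm2 and Igtp, like Tgtp1, had their 3 lowest values in the CD4 ThpokAD libraries, and their differences between CD8 control and CD4 control did not pass the test. Both encode regulatory IRG proteins, Igtp being also known as Irgm3, and they overlap on the plus strand (Igtp chr11:58199556-58207591, Irgm2 chr11:58199618-58222782). Irgm2 was at 75.5, 93.96 and 82.7 CPM in the CD4 control libraries, 24.9, 40.4 and 39.1 CPM in the CD4 ThpokAD libraries and 54.8, 67.7 and 49.8 CPM in the CD8 control libraries. Every CD4 ThpokAD library was below every library of the other groups, and Irgm2 fell 2.41-fold against CD4 control (log2 fold change -1.27, SE 0.22, adjusted p = 0.0197). The call did not hold without CD4 control replicate 1, 2 or 3 or CD4 ThpokAD replicate 1 or 3 (range of adjusted p 0.0511 to 0.0805). CD8 control did not pass the test against CD4 control (log2 fold change -0.55, adjusted p = 0.148). Igtp was at 166, 122 and 141 CPM in the CD4 control libraries, 86.95, 117 and 81 CPM in the CD4 ThpokAD libraries and 144, 151 and 162 CPM in the CD8 control libraries. Its CD4 ThpokAD libraries were again the 3 lowest, without passing the test against CD4 control (log2 fold change -0.59, SE 0.17, adjusted p = 0.134) or against CD8 control. Igtp and Irgm2 share 12.3% of the 50-base stretches of Igtp, and counting of overlapping genes can leave reads out. Their summed counts gave 241, 216 and 224 CPM in CD4 control, 112, 158 and 120.1 CPM in CD4 ThpokAD and 199, 219 and 212 CPM in CD8 control. The sum was 1.75-fold lower in CD4 ThpokAD cells than in CD4 control (adjusted p = 0.0214) and 1.61-fold lower than in CD8 control (adjusted p = 0.0235). Leave-outs were not run on the summed counts, so whether these calls hold is unknown. Summing also cannot restore reads left out of both genes. Of the 4 genes with the joined GAS and ISRE letters, Tgtp1 and Tgtp2 fell in CD4 ThpokAD against CD8 control, and Irgm2 and Igtp had log2 fold changes of -0.72 and -0.68 there that did not pass the test (adjusted p = 0.0942 and 0.0537). In CD8 control against CD4 control, Tgtp2 was the only one of the 4 called.

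Iigp1, the effector GTPase also known as Irga6, had the opposite direction from Ifi47 and Tgtp2 in CD8 cells. Its level was 13.2, 23.3 and 19.3 CPM in the CD4 control libraries, 8.53, 1.805 and 29.4 CPM in the CD4 ThpokAD libraries and 0.418, 0.581 and 1.43 CPM in the CD8 control libraries. All CD8 control libraries were below all CD4 libraries, while CD4 ThpokAD spanned the range of CD4 control on both sides. Iigp1 was 22.3-fold lower in CD8 control than in CD4 control (log2 fold change -4.48, SE 0.97, adjusted p = 0.0192), and the call did not hold without CD4 control replicate 2 or CD8 control replicate 1 or 2 (range of adjusted p 0.0561 to 0.0694). It was 15.95-fold higher in CD4 ThpokAD than in CD8 control (adjusted p = 0.0416), a call that held only without CD4 ThpokAD replicate 2 among the 9 leave-outs (adjusted p 0.0667 to 0.131 in the others). The MHC class II genes and Cd74, which held most of the summed markers given above, were likewise lower in CD8 control. The part of other cells in the Iigp1 result was not tested.

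**Figure D2:**
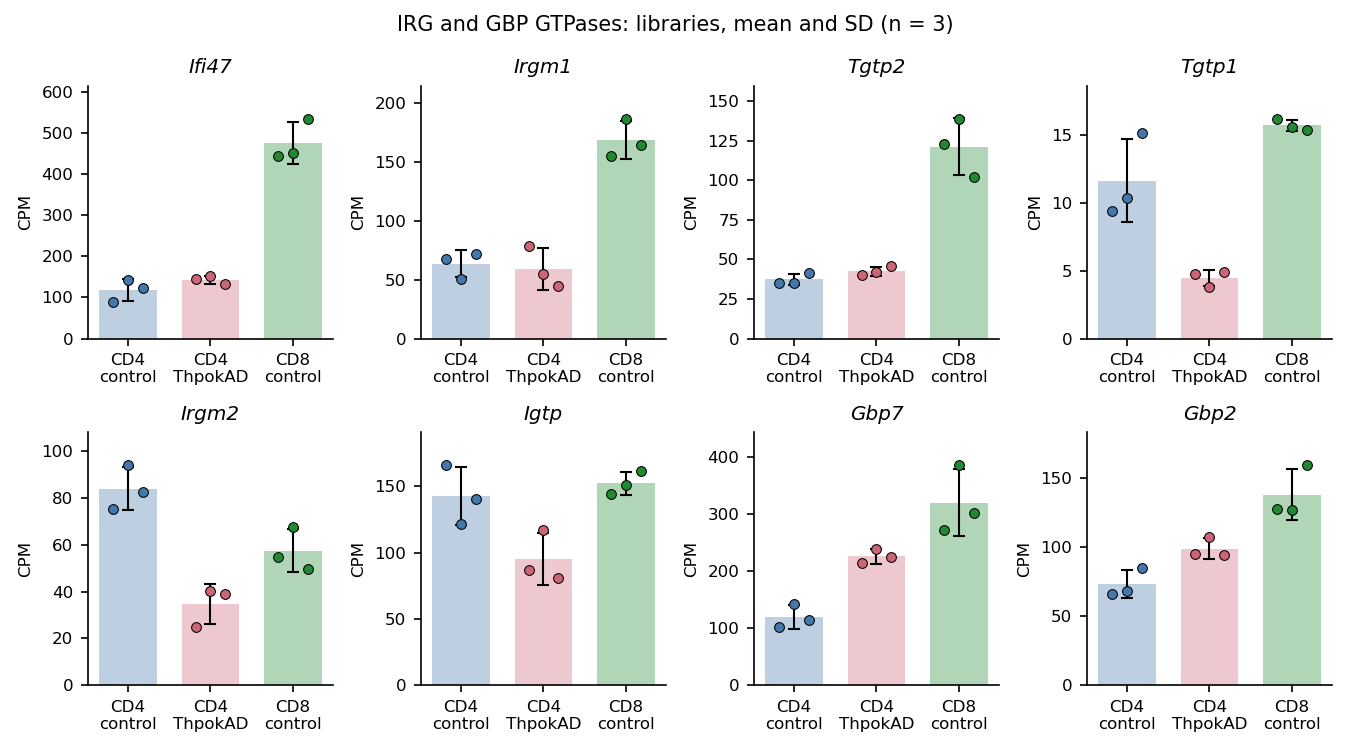
CPM of 8 IRG and GBP GTPases (vertical axes, each from 0) in the 3 groups (horizontal axes). Points are libraries, bars the mean and error bars the SD of 3 libraries. Ifi47, Irgm1 and Tgtp2 are high in CD8 control alone, Irgm2 is lowest in CD4 ThpokAD, and Gbp7 and Gbp2 have CD4 ThpokAD between the other groups.

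The 6 GBP genes encode large GTPases that coat and lyse pathogen vacuoles. Of these, 2 rose and none fell in CD8 control against CD4 control, beside 5.13% and 6.55% of all genes tested. In CD4 ThpokAD against CD4 control 1 rose, beside 1.81% of all genes tested, and none was called between CD4 ThpokAD and CD8 control. Gbp7 (chr3:142530342-142550149, plus strand) was at 102, 143 and 114 CPM in the CD4 control libraries, 214, 239.5 and 224 CPM in the CD4 ThpokAD libraries and 271, 386 and 303 CPM in the CD8 control libraries. The 3 groups did not overlap, with CD4 control lowest and CD8 control highest. Gbp7 rose 1.89-fold in CD4 ThpokAD against CD4 control (log2 fold change 0.92, SE 0.17, adjusted p = 0.0253) and 2.68-fold in CD8 control against CD4 control (adjusted p = 0.000945). The first call did not hold without CD4 control replicate 1 or 3 or any CD4 ThpokAD replicate (range of adjusted p 0.0767 to 0.0995). CD4 ThpokAD and CD8 control did not pass the test (log2 fold change -0.50, adjusted p = 0.124).

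Gbp2 (chr3:142620602-142638008, plus strand) was at 66.04, 67.96 and 84.96 CPM in the CD4 control libraries, 94.6, 107 and 93.7 CPM in the CD4 ThpokAD libraries and 127, 127 and 159 CPM in the CD8 control libraries. It had the same order of groups without overlap, and rose 1.89-fold in CD8 control against CD4 control (log2 fold change 0.92, SE 0.15, adjusted p = 0.00573). The intermediate level of CD4 ThpokAD did not pass the test against CD4 control (adjusted p = 0.206) or CD8 control (adjusted p = 0.106). Gbp3, which lies between them, was at 42.1 to 48.9 CPM in CD4 control, 71.4 to 82.6 CPM in CD4 ThpokAD and 52.9 to 103 CPM in CD8 control, with log2 fold changes against CD4 control of 0.78 and 0.78 (adjusted p = 0.128 and 0.0591). Gbp4 was at 129.8, 168 and 157 CPM in CD4 control, 159, 129.8 and 108 CPM in CD4 ThpokAD and 192, 166 and 198 CPM in CD8 control. Its groups overlapped and no comparison passed the test (adjusted p = 0.667, 0.324 and 0.134). Gbp5, an activator of inflammasomes, was at 15.1, 28.4 and 12.9 CPM in CD4 control, 21.9, 23.02 and 19.5 CPM in CD4 ThpokAD and 34.99, 30.4 and 34.02 CPM in CD8 control. Its CD8 control libraries were the 3 highest without passing the test (log2 fold change against CD4 control 0.82, adjusted p = 0.117). Gbp6 was at 14.7 to 19.9, 14.6 to 18.9 and 7.82 to 21.9 CPM in the 3 groups, and 59.7% of its 50-base stretches occur in other genes.

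Within the ISG15 system, the modifier and its protease went in opposite directions in CD8 cells. Isg15, a ubiquitin-like protein joined to other proteins after interferon, lies at chr4:156199424-156200818 on the minus strand. Its level was 48.2, 50.1 and 55.1 CPM in the CD4 control libraries, 20.9, 41.7 and 48.9 CPM in the CD4 ThpokAD libraries and 12.2, 14.5 and 20.02 CPM in the CD8 control libraries. All CD8 control libraries lay below all CD4 libraries, with CD4 ThpokAD replicate 1 next to them. Isg15 was 3.28-fold lower in CD8 control than in CD4 control (log2 fold change -1.71, SE 0.32, adjusted p = 0.01). CD4 ThpokAD was not called against CD8 control (log2 fold change 1.25, adjusted p = 0.0536) and passed the test without CD4 ThpokAD replicate 1. Usp18, which removes Isg15 from proteins and limits signalling by the type I receptor, was at 41.8, 45.3 and 54.1 CPM in the CD4 control libraries, 37.02, 45.2 and 47.3 CPM in the CD4 ThpokAD libraries and 120.2, 126 and 106 CPM in the CD8 control libraries. The CD8 control libraries were all above the CD4 libraries, whose groups overlapped. Usp18 was 2.497-fold higher in CD8 control than in CD4 control (log2 fold change 1.32, SE 0.17, adjusted p = 0.00115) and 2.72-fold lower in CD4 ThpokAD cells than in CD8 control (adjusted p = 0.00128). Trim25, a ubiquitin ligase that activates the sensor RIG-I, was at 53.8 to 78.8, 37.02 to 51.4 and 51.5 to 70.5 CPM in the 3 groups and was not called.

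The 3 IFIT genes, whose proteins bind viral RNA and block its translation, had positive log2 fold changes in both groups against CD4 control, and 1 of those 6 differences passed the test. Ifit2 was at 14.9, 24.3 and 36.5 CPM in the CD4 control libraries, 42.1, 52.9 and 77.2 CPM in the CD4 ThpokAD libraries and 76.5, 67.4 and 71.03 CPM in the CD8 control libraries. It rose 2.84-fold in CD8 control against CD4 control (log2 fold change 1.5, SE 0.33, adjusted p = 0.0206), which did not hold without CD4 control replicate 1 or 2 or CD8 control replicate 1 or 3 (range of adjusted p 0.0508 to 0.0797). CD4 ThpokAD lay above all CD4 control libraries without passing the test (log2 fold change 1.18, adjusted p = 0.112). Ifit1 was at 7.33, 15.8 and 11.1 CPM in CD4 control, 17.4, 25.9 and 11.9 CPM in CD4 ThpokAD and 16.6, 7.07 and 25.3 CPM in CD8 control. Ifit3 was at 6.03, 10.3 and 10.2 CPM in CD4 control, 7.13, 21.5 and 17.03 CPM in CD4 ThpokAD and 9.41, 43.6 and 35.2 CPM in CD8 control. The CD8 control libraries spread most widely in both genes, the groups overlapped, and the smallest adjusted p was 0.0982, for Ifit3 in CD8 control against CD4 control, which passed the test without CD8 control replicate 1. Of the 50-base stretches of Ifit3, 51.2% occur in its neighbour Ifit3b.

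None of the 4 tested OAS genes, whose family makes the oligoadenylates that activate RNase L, was called in any comparison. Oas1a was at 45.5, 35.4 and 34.8 CPM in CD4 control, 23.4, 21.4 and 14.7 CPM in CD4 ThpokAD and 23.1, 35.5 and 37.5 CPM in CD8 control. CD4 ThpokAD was below all CD4 control libraries (log2 fold change -0.96, adjusted p = 0.105), and 57.6% of its 50-base stretches are shared with Oas1g. Oasl2 was at 29.4, 8.74 and 17.9 CPM in CD4 control, 0, 6.56 and 0 CPM in CD4 ThpokAD and 6.35, 7.56 and 1.504 CPM in CD8 control. It was at 0 in CD4 ThpokAD replicates 1 and 3 and varied within each group, and CD4 ThpokAD against CD4 control gave an adjusted p of 0.437, or 0.0231 without CD4 ThpokAD replicate 2, the only one of its group with a count. Oas2, which did not pass the filter, was at 0.0621, 1.26 and 1.86 CPM in CD4 control and had no count in the other 6 libraries. From 55 counts in CD4 control and a floor of 3 counts summed over each other group, it was at least 20.7-fold higher than in CD4 ThpokAD and at least 30.7-fold higher than in CD8 control, for counting error only, and CD4 control replicate 1 was itself near 0. Oas3 and Oasl1 were at 57.96 to 74.6 and 4.08 to 9.49 CPM in CD4 control and were not called.

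Of the 16 other antiviral members, 7 were called in at least 1 comparison. The shares of all genes tested that were called in each comparison are given above. The calls had 3 patterns: lower in CD8 cells (Isg20, Ifi27l2a), higher in CD8 cells (Sp100, Xaf1) and lower in CD4 ThpokAD (Slfn2, Shisa5, Pydc3). Isg20, an exonuclease that degrades viral RNA, was at 25.04, 32.1 and 29.5 CPM in the CD4 control libraries, 18.9, 22.1 and 11.7 CPM in the CD4 ThpokAD libraries and 5.18, 3.59 and 8.33 CPM in the CD8 control libraries. It was 5.05-fold lower in CD8 control than in CD4 control (log2 fold change -2.34, SE 0.38, adjusted p = 0.00446), and all CD8 control libraries were below all others. The CD4 ThpokAD excess over CD8 control (3.07-fold, adjusted p = 0.0348) held without CD4 ThpokAD replicate 3 or CD8 control replicate 3 and was lost in the 7 other leave-outs (range of adjusted p 0.0594 to 0.113). Ifi27l2a, also known as Isg12, was at 97.5, 124 and 109 CPM in the CD4 control libraries, 109.9, 95.3 and 106 CPM in the CD4 ThpokAD libraries and 37.3, 34.6 and 45.4 CPM in the CD8 control libraries. The CD4 groups overlapped and the CD8 control libraries lay below both, 2.81-fold below CD4 control (log2 fold change -1.49, SE 0.16, adjusted p = 0.00044) and 2.65-fold below CD4 ThpokAD (adjusted p = 0.00113).

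Sp100, a component of promyelocytic leukaemia nuclear bodies that restricts DNA viruses, was at 469.9, 511 and 554 CPM in the CD4 control libraries, 703, 906 and 803 CPM in the CD4 ThpokAD libraries and 1084, 1152 and 1319 CPM in the CD8 control libraries. The 3 groups did not overlap. Sp100 rose 1.57-fold in CD4 ThpokAD (log2 fold change 0.65, SE 0.13, adjusted p = 0.0297) and 2.32-fold in CD8 control against CD4 control (adjusted p = 0.000401), and CD4 ThpokAD was 1.47-fold below CD8 control (adjusted p = 0.033). The call between the CD4 groups did not hold without CD4 control replicate 1, 2 or 3, CD4 ThpokAD replicate 2 or 3, or CD8 control replicate 2 (range of adjusted p 0.0505 to 0.124). The call between CD4 ThpokAD and CD8 control did not hold without CD4 control replicate 2 or 3, CD4 ThpokAD replicate 1 or 3, or either of CD8 control replicates 2 and 3 (range of adjusted p 0.0502 to 0.109). Xaf1, a binding partner of the apoptosis inhibitor XIAP, was at 11.5, 16.5 and 10.2 CPM in CD4 control, 12.9, 19.6 and 23.02 CPM in CD4 ThpokAD and 30.9, 28.9 and 34.8 CPM in CD8 control. CD8 control lay above both CD4 groups, 2.48-fold above CD4 control (adjusted p = 0.0198), which did not hold without CD4 control replicate 1 or 3 or CD8 control replicate 1 or 3 (range of adjusted p 0.0538 to 0.0781).

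Slfn2, a Schlafen protein that keeps T cells quiescent, was at 754, 775 and 741 CPM in the CD4 control libraries, 452, 499.7 and 517 CPM in the CD4 ThpokAD libraries and 776, 837 and 801 CPM in the CD8 control libraries. CD4 ThpokAD lay below both other groups, which lay next to each other (adjusted p = 0.59). Slfn2 fell 1.55-fold in CD4 ThpokAD against CD4 control (log2 fold change -0.63, SE 0.09, adjusted p = 0.00771) and 1.64-fold against CD8 control (adjusted p = 0.00202). It was the only member called between the CD4 groups whose call held in all 9 leave-outs (range of adjusted p 0.00686 to 0.0415). The 15 cell cycle genes were higher in sum in CD4 ThpokAD, as given above, and their relation to this result was not tested.

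Shisa5, a protein of the endoplasmic reticulum also known as Scotin, was at 2918, 2830.4 and 2886 CPM in the CD4 control libraries, 1968, 2023 and 2123 CPM in the CD4 ThpokAD libraries and 2572, 2640.2 and 3155 CPM in the CD8 control libraries. CD4 ThpokAD was again the lowest group without overlap, 1.41-fold below CD4 control (log2 fold change -0.50, SE 0.09, adjusted p = 0.0266) and 1.37-fold below CD8 control (adjusted p = 0.0231). The first call did not hold without any of the 6 CD4 libraries (range of adjusted p 0.0743 to 0.111) and the second without any CD4 ThpokAD replicate (range of adjusted p 0.0528 to 0.0914). Pydc3, a pyrin-domain protein of the Ifi200 family, was at 61.8, 76.5 and 94.1 CPM in the CD4 control libraries, 25.7, 36.1 and 32.3 CPM in the CD4 ThpokAD libraries and 86.4, 125 and 163 CPM in the CD8 control libraries. Its CD4 ThpokAD libraries were the 3 lowest. Pydc3 fell 2.47-fold in CD4 ThpokAD against CD4 control (log2 fold change -1.3, SE 0.26, adjusted p = 0.035) and 3.97-fold against CD8 control (adjusted p = 0.00307). The first call did not hold without any CD4 library or without CD8 control replicate 2 (range of adjusted p 0.0555 to 0.131), and 25.9% of its 50-base stretches occur in other genes.

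**Figure D3:**
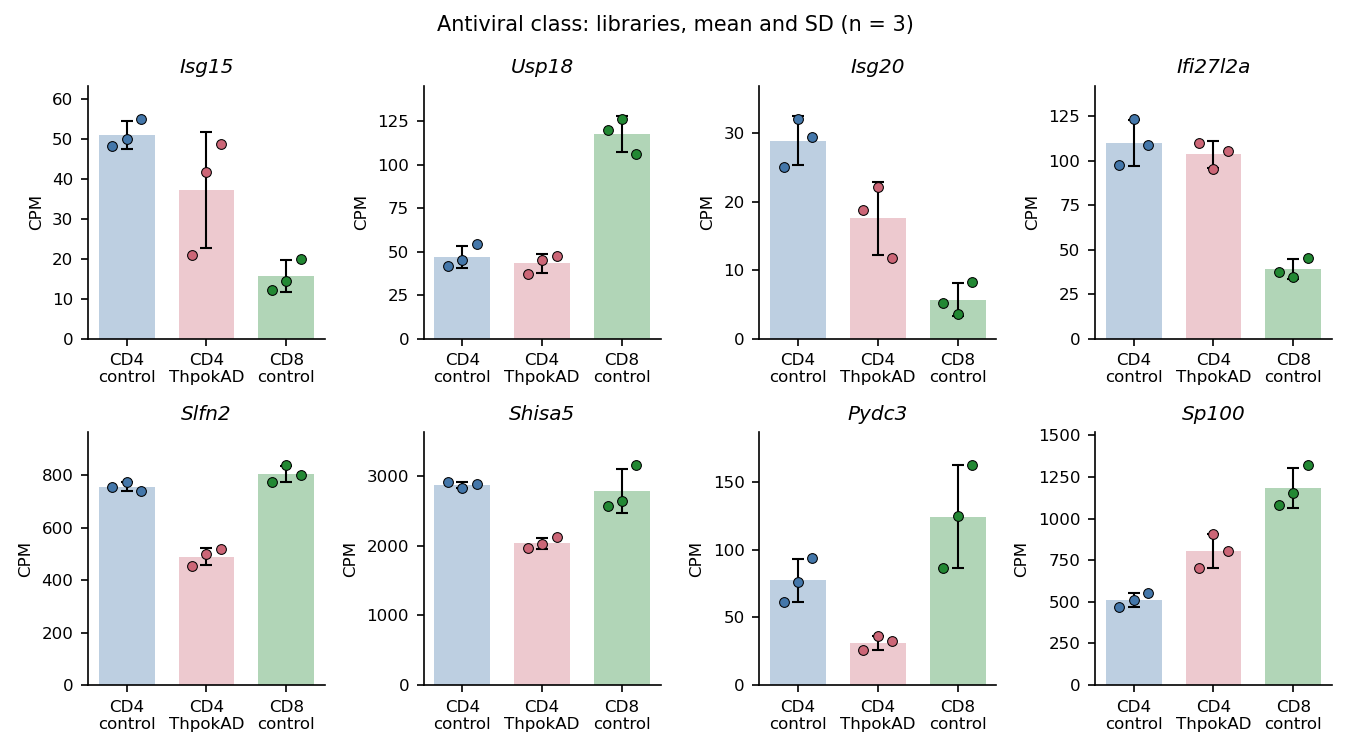
CPM of 8 antiviral members (vertical axes, each from 0) in the 3 groups (horizontal axes). Points are libraries, bars the mean and error bars the SD of 3 libraries. Isg15, Isg20 and Ifi27l2a are lowest in CD8 control, Usp18 and Sp100 highest in CD8 control, and Slfn2, Shisa5 and Pydc3 lowest in CD4 ThpokAD.

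The 5 effectors Mx1, Rsad2, Bst2, Eif2ak2 and Samhd1 were not called in any comparison. Mx1, a dynamin-like GTPase that blocks viral nucleoproteins, was at 4.78, 11.6 and 21.2 CPM in CD4 control, 31.4, 13.9 and 24.7 CPM in CD4 ThpokAD and 42.6, 37.4 and 29.4 CPM in CD8 control. The largest difference was in CD8 control against CD4 control (log2 fold change 1.54, SE 0.50, adjusted p = 0.0851), and it passed the test without CD4 control replicate 3. Rsad2 (viperin), which blocks viral replication and budding, was at 7.77, 7.14 and 13.2 CPM in CD4 control, 7.18, 6.23 and 6.37 CPM in CD4 ThpokAD and 0, 2.81 and 3.92 CPM in CD8 control. Its CD8 control libraries were the 3 lowest, without passing the test against CD4 control (adjusted p = 0.307). Bst2 (tetherin), which holds budding virus at the membrane, was at 69.4, 58.01 and 50.3 CPM in CD4 control, 73.8, 52.9 and 54.8 CPM in CD4 ThpokAD and 69.6, 66.2 and 76.2 CPM in CD8 control. Its groups overlapped. Eif2ak2 (PKR), the kinase that stops translation on viral RNA, was at 17.95, 22.6 and 19.3 CPM in CD4 control, 13.3, 30.6 and 13.3 CPM in CD4 ThpokAD and 27.4, 27.5 and 13.02 CPM in CD8 control. Samhd1, which depletes the nucleotides that retroviruses need, was at 257, 282 and 304 CPM in CD4 control, 337, 280 and 344 CPM in CD4 ThpokAD and 283, 311 and 378 CPM in CD8 control. Neither separated the groups, and the smallest adjusted p of these 5 genes was 0.0851. Ifi35, Ifi44, Rtp4 and Trim30a were not called either, and ranged over all libraries from 38.3 to 81.3, 0 to 5.36, 26.3 to 42.5 and 82.0 to 203 CPM.

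The 4 RNA and DNA sensors were not called. Ddx58 (RIG-I) was at 72, 92.5 and 83.7 CPM in CD4 control, 59.7, 96.7 and 98.6 CPM in CD4 ThpokAD and 71.9, 86.5 and 117 CPM in CD8 control. Ifih1 (MDA5) was at 30.2, 42.1 and 25.6 CPM in CD4 control, 32.2, 20.1 and 23.4 CPM in CD4 ThpokAD and 26.97, 16.3 and 25.6 CPM in CD8 control. Dhx58 (LGP2), their regulator, was at 5.47, 13.7 and 26.3 CPM in CD4 control, 1.85, 10.6 and 13.8 CPM in CD4 ThpokAD and 24.2, 11.5 and 21.6 CPM in CD8 control. The groups overlapped in all 3 genes. Zbp1, a sensor of Z-form nucleic acid that triggers necroptosis, was at 61.9, 54.6 and 53.4 CPM in CD4 control, 72.1, 58.8 and 68.1 CPM in CD4 ThpokAD and 68.9, 83.7 and 83.6 CPM in CD8 control. Its CD8 control libraries overlapped those of CD4 ThpokAD and lay above those of CD4 control (log2 fold change 0.48, adjusted p = 0.0784). Of the ADP-ribosylation genes, Parp9 was at 57.96, 78.5 and 67.9 CPM in CD4 control, 57.4, 54.4 and 76.5 CPM in CD4 ThpokAD and 71.5, 60.7 and 101 CPM in CD8 control. Parp14 was at 59.5, 88.8 and 80.1 CPM in CD4 control, 90.6, 57.97 and 86.9 CPM in CD4 ThpokAD and 137, 67.5 and 103 CPM in CD8 control. Dtx3l, the ligase that pairs with Parp9, was at 51.95 to 105, 86.9 to 123 and 133 to 164 CPM in the 3 groups, and its log2 fold change of 0.87 in CD8 control against CD4 control did not pass the test (adjusted p = 0.059). Parp9 and Dtx3l overlap on opposite strands, and the kits do not mark strand.

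The IFITM genes encode proteins that hinder viral entry at membranes, and 1 of the 3, Ifitm1, was called. Ifitm1 was at 19.9, 5.03 and 8.62 CPM in the CD4 control libraries, 1.796, 1.37 and 1.17 CPM in the CD4 ThpokAD libraries and 0.962, 1.79 and 1.04 CPM in the CD8 control libraries. All CD4 control libraries were above the others, replicate 1 by most. Ifitm1 fell 7.73-fold in CD4 ThpokAD (log2 fold change -2.95, SE 0.62, adjusted p = 0.0418) and 8.85-fold in CD8 control against CD4 control (adjusted p = 0.0124). The second call did not hold without CD4 control replicate 1 (adjusted p = 0.0534). The first did not hold without CD4 control replicate 1 or 3, any CD4 ThpokAD replicate, or CD8 control replicate 1 or 3 (range of adjusted p 0.0538 to 0.168). Ifitm2 was at 4.47, 4.34 and 2.68 CPM in CD4 control, 5.09, 2.52 and 5.198 CPM in CD4 ThpokAD and 0.711, 1.94 and 1.23 CPM in CD8 control, and 48.5% of its 50-base stretches occur in other genes. Ifitm3 was at 17.6, 16.9 and 9.56 CPM in CD4 control, 13.1, 12.6 and 10.6 CPM in CD4 ThpokAD and 1.55, 11.4 and 4.61 CPM in CD8 control. Both had their highest values in CD4 libraries, and neither was called (smallest adjusted p 0.121 and 0.214).

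All 3 antigen-processing members were called higher in CD8 control than in CD4 control, beside 5.13% of all genes tested, and none in the other comparisons. Psmb8, a subunit of the immunoproteasome, was at 341, 369 and 350.3 CPM in CD4 control, 388, 344 and 382 CPM in CD4 ThpokAD and 430.4, 518 and 449 CPM in CD8 control. It was 1.32-fold higher in CD8 control (log2 fold change 0.40, SE 0.11, adjusted p = 0.0435). Psmb9, another subunit, was at 109.5, 118 and 121 CPM in CD4 control, 148, 131 and 143 CPM in CD4 ThpokAD and 175, 193 and 268 CPM in CD8 control. It was 1.82-fold higher (log2 fold change 0.87, SE 0.16, adjusted p = 0.01), and every CD8 control library was above every CD4 library. Tap1, which carries peptides into the endoplasmic reticulum, was at 232, 284 and 296 CPM in CD4 control, 379.7, 334 and 382 CPM in CD4 ThpokAD and 344, 383 and 379.6 CPM in CD8 control. It was 1.36-fold higher in CD8 control than in CD4 control (log2 fold change 0.45, SE 0.12, adjusted p = 0.0461), with CD4 ThpokAD at the CD8 level. The Psmb9 call held in all 9 leave-outs, whereas those of Psmb8 (range of adjusted p 0.0532 to 0.138) and Tap1 (range of adjusted p 0.0599 to 0.142) held in none. Psmb9 and Tap1 overlap on opposite strands.

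**Figure D4:**
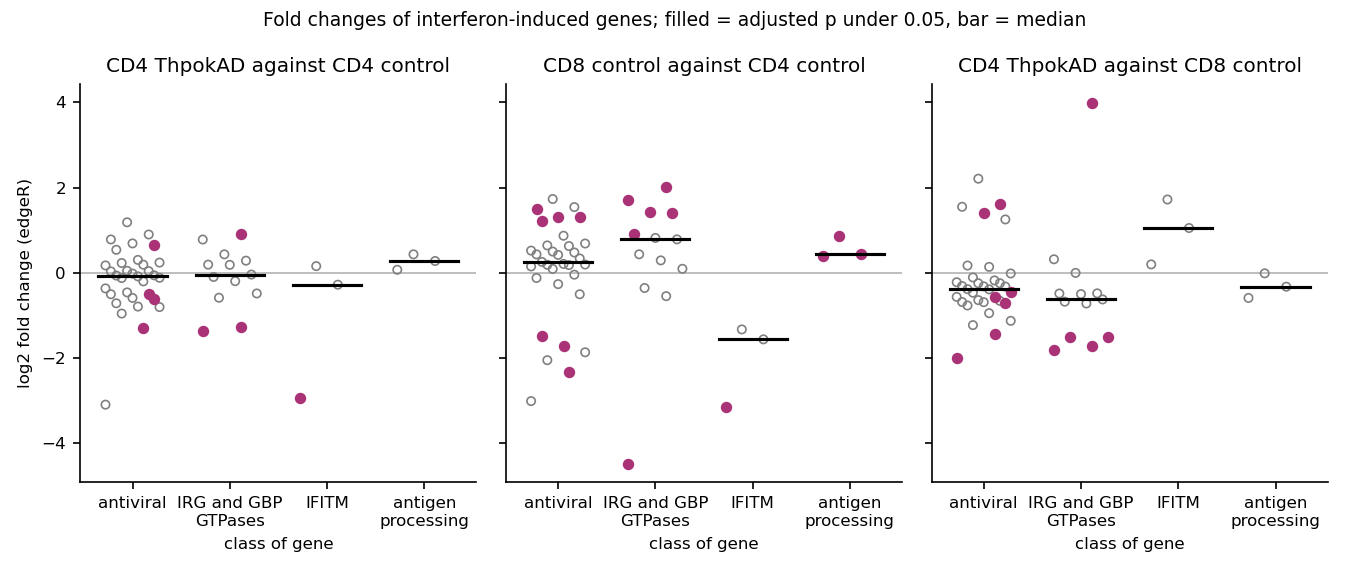
Log2 fold change (vertical axis, edgeR) of each tested member by class (horizontal axis) in the 3 comparisons. Each point is a gene, filled where the adjusted p is under 0.05, and the bar is the class median. In CD8 control against CD4 control the GTPase median is 0.78 and the antiviral median 0.25.

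The contrast between classes appeared in CD8 control against CD4 control and hardly in CD4 ThpokAD against CD4 control. The 13 GTPases had a median log2 fold change of 0.78 in CD8 control against CD4 control (5 called higher, 1 lower), and the 33 tested antiviral members one of 0.25 (4 higher, 3 lower), a difference of 0.53. In CD4 ThpokAD against CD4 control the medians were -0.04 (1 higher, 2 lower) and -0.07 (1 higher, 3 lower), a difference of 0.02. In CD4 ThpokAD against CD8 control they were -0.63 (1 higher, 4 lower) and -0.39 (2 higher, 5 lower), a difference of -0.24. Of all genes tested, 5.13% were called higher and 6.55% lower in CD8 control against CD4 control. These shares were 1.81% and 0.928% in CD4 ThpokAD against CD4 control, and 4.63% and 1.91% in CD4 ThpokAD against CD8 control. Summed over the class, the GTPases reached 830 to 944 CPM in CD4 control, 916 to 1014 CPM in CD4 ThpokAD and 1649 to 1837 CPM in CD8 control. The sums of the antiviral class were 5596 to 5780, 4590 to 5043 and 6233 to 7318 CPM, in which Shisa5 had the largest share. Within a library, the median log2 CPM of the GTPases exceeded that of the antiviral class by 0.53, 0.15 and 0.51 in CD4 control, 0.94, 0.36 and 0.30 in CD4 ThpokAD and 1.39, 1.45 and 0.55 in CD8 control. CD8 control replicate 3 lay near the CD4 libraries on this measure and below CD4 ThpokAD replicate 1, so the groups overlapped. The difference of 0.53 was 0.34 without that library, and 0.34 to 0.57 over the 9 leave-outs. Between the CD4 groups it ranged from -0.13 without CD4 control replicate 2 to 0.19 without CD4 control replicate 1. Between CD4 ThpokAD and CD8 control it became -0.10 without CD4 ThpokAD replicate 3 and -0.12 without CD8 control replicate 2. The class median also covers unlike genes, since Iigp1 fell and Ifi47, Irgm1, Tgtp2, Gbp2 and Gbp7 rose.

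Per kilobase of exons, the highest mean levels were those of Shisa5 (873, 618 and 846 CPM per kb in CD4 control, CD4 ThpokAD and CD8 control) and Slfn2 (455, 294 and 484 CPM per kb), in that order in every group. Ifi27l2a followed at 237 and 224 CPM per kb in the CD4 groups and was in place 6 in CD8 control at 84.4 CPM per kb. The place there was taken by Ifi47, at 193 CPM per kb in CD8 control, where it stood in place 10 in CD4 control (47.7 CPM per kb) and in place 8 in CD4 ThpokAD (58.1 CPM per kb). Isg15 went from place 7 (67.6 CPM per kb) in CD4 control to place 24 (20.6 CPM per kb) in CD8 control. Neighbouring places were not tested.

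The interferon pathway itself was a list of 22 receptors, kinases, factors and brakes, of which 21 were tested. In CD4 ThpokAD against CD4 control, 1 was called higher and 1 lower, beside 1.81% and 0.928% of all genes tested. In CD8 control against CD4 control, 1 was higher and 7 lower, beside 5.13% and 6.55%. In CD4 ThpokAD against CD8 control, 5 were higher and 1 lower, beside 4.63% and 1.91%. The median log2 fold change of the list was 0.01, 0.09 and 0.05. The receptor chain Ifngr1 was at 1789, 1594 and 1336 CPM in CD4 control, 1631, 1711 and 1406 CPM in CD4 ThpokAD and 584, 562 and 585 CPM in CD8 control. It fell 2.73-fold in CD8 control against CD4 control (adjusted p = 0.000132) without overlap. Ifngr2 was at 13.4, 26.9 and 19.3 CPM in CD4 control, 3.74, 12.4 and 8.91 CPM in CD4 ThpokAD and 1.59, 0 and 0.838 CPM in CD8 control, also lower in CD8 control than in CD4 control (adjusted p = 0.0263). Ifnar1 was at 371, 328 and 349 CPM in CD4 control, 265, 388 and 294 CPM in CD4 ThpokAD and 185, 138 and 159 CPM in CD8 control. It was 2.17-fold lower in CD8 control than in CD4 control (adjusted p = 0.00314), whereas Ifnar2, at 104 to 143, 64.1 to 98.02 and 121 to 138 CPM, was not called. Ifng itself was at 162, 229 and 257 CPM in CD4 control, 338, 459 and 518 CPM in CD4 ThpokAD and 82.4, 72.7 and 144 CPM in CD8 control. It fell 2.16-fold in CD8 control against CD4 control (adjusted p = 0.0396) and was 4.39-fold higher in CD4 ThpokAD than in CD8 control (adjusted p = 0.00387). The higher values of CD4 ThpokAD than of CD4 control did not pass the test (adjusted p = 0.117). CD8 control cells had the lowest Ifng, Ifngr1 and Ifnar1 and the highest Ifi47, Irgm1 and Tgtp2. Other genes of the same lists differed, since Ifnar2 was not called and the GTPase Iigp1 was lowest in CD8 control. The relation between the levels of pathway genes and GTPases was not tested.

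Irf7, the factor that amplifies type I interferon, was at 296, 287 and 259 CPM in CD4 control, 494, 517 and 466 CPM in CD4 ThpokAD and 148, 192 and 153 CPM in CD8 control. It rose 1.76-fold in CD4 ThpokAD (log2 fold change 0.81, SE 0.13, adjusted p = 0.012) and fell in CD8 control (log2 fold change -0.77, adjusted p = 0.00482) against CD4 control. Socs3, a feedback inhibitor of cytokine receptors, was at 569, 566 and 619 CPM in CD4 control, 220.4, 284 and 235 CPM in CD4 ThpokAD and 37.6, 44.6 and 42.1 CPM in CD8 control, and fell in both groups against CD4 control (adjusted p = 0.00145 in CD4 ThpokAD and 1.9e-06 in CD8 control). Jak2 fell in CD8 control against CD4 control (log2 fold change -1.18, adjusted p = 0.0253), and Irf3 rose (log2 fold change 0.75, adjusted p = 0.0146). Stat2, Irf1, Irf9 and Socs1 were at 22.2 to 59.7, 293 to 314, 89.97 to 129 and 36.8 to 41.3 CPM in CD4 control. None of these 4 genes was called in any comparison, with adjusted p from 0.109 upward.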

How the data were processed

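RNA was measured in 9 libraries of tetramer-sorted spleen T cells, whose titles put 3 libraries in each of the groups CD4 control, CD4 ThpokAD and CD8 control. The table used holds the authors' deposited counts, whole numbers for each gene symbol that had not been normalized. The mm10 build and the tools bcl2fastq 2.17, STAR, HTSeq, Trimmomatic and DESeq2 are listed, without roles, in the submitters' processing notes. The annotation release and strand setting are not given in the sources used here, and the SMARTer Ultra Low Input and Nextera XT kits named in the labels' protocols do not mark strand. A second deposited table of scaled values was not used. Nothing in the labels ties replicates to separate animals. The p-values therefore measure only how far these samples spread, which may be technical. Replicates differed by more than counting noise (chi-square per degree of freedom 34.8 to 160.2). The values of 146.4 and 160.2 were those of pairs with CD8 control replicate 3, the deepest library. The other pairs reached at most 52.65.

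The low-count filter was filterByExpr of edgeR, by group, with a minimum count of 10 and a minimum total of 15, and 15738 genes passed it. The test was edgeR 4.0.16's quasi-likelihood test in R 4.3.3 with TMM scaling. A single fit held all 9 libraries, and p-values were adjusted by Benjamini-Hochberg over every gene tested in each of 3 comparisons. It was tested on simulated data first. CPM are counts over the TMM-scaled library size. A gene at 0 in a group was set against a floor of 3 counts summed over that group, which covers counting error only.

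Values in each library are given for members called in any comparison and for the best known members of each role, and for the rest as ranges. The members and gene lists were chosen with earlier results of these data known. Positions, exon lengths and shared 50-base stretches come from GENCODE M21 on mm10, in which all 53 members were found, and promoter windows from RefSeq on GRCm38.p6. Alternatives tried were DESeq2 1.42.0, other scalings, no low-count filter, only the 6 libraries compared, the replicate number as a block, and leaving out each library. Counts of near-copies and overlapping genes were also summed, a choice made after seeing the data. The alternatives and leave-outs were not run on these sums.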

Additional observations from a re-analysis of the deposited data

How the results depend on the processing

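No called member changed direction under any alternative tried. DESeq2's Wald test called 5 members higher in CD4 ThpokAD than in CD4 control (main count 2) and 5 higher than in CD8 control (main count 3). Without the low-count filter, 1 member was higher and 3 were lower in CD4 ThpokAD cells than in CD4 control (main counts 2 and 6), and with only the 6 libraries compared, 1 was higher in CD4 ThpokAD than in CD8 control. Leaving out 1 library at a time gave 0 to 2 higher and 1 to 4 lower between the CD4 groups, 8 to 11 higher and 4 to 5 lower in CD8 control than in CD4 control, and 1 to 2 higher and 7 to 10 lower in CD4 ThpokAD than in CD8 control. Other counts of members stayed within 1.5 times the main count.

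Libraries with the same replicate number did not deviate together (correlation -0.05 to 0.06 over 9 pairs), beside -0.05 to 0.03 over 18 pairs with different numbers. Such correlations cannot show whether libraries came from the same animals. The labels do not say either, so whether the numbers pair the samples is unknown. With the replicate number as a block, 2 members were called higher and 4 lower between the CD4 groups, 11 and 5 in CD8 control against CD4 control, and 2 and 9 in CD4 ThpokAD against CD8 control. Over all genes, the calls between the CD4 groups were 285 higher and 146 lower, against 850 and 606 with DESeq2, 195 and 86 with the block, 357 and 246 with only the 6 libraries compared, and 131 to 281 and 50 to 196 over the leave-outs. In CD8 control against CD4 control they were 808 and 1031, against 1465 and 1785 with DESeq2 and 421 to 707 and 637 to 960 over the leave-outs. In CD4 ThpokAD against CD8 control they were 729 and 301, against 1496 and 848 with DESeq2, 501 and 183 with the block, and 438 to 586 and 143 to 222 over the leave-outs. With 3 libraries a group, the differences of Oasl2, Ifi44 and Rsad2, whose counts were 0 in at least 1 library, were not resolved. The cause of these differences between settings was not tested.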

Other observations

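A further list held 67 names of genes that are induced by interferon or belong to the families of such genes. It includes Ifi208, the RefSeq name of the member Pydc3, and 62 of the names had an entry. The 55 that were tested had median log2 fold changes of 0.02 in CD4 ThpokAD against CD4 control and 0.36 in CD8 control against CD4 control. The median was -0.41 in CD4 ThpokAD against CD8 control. In these comparisons 3, 13 and 2 of the listed genes were called higher (edgeR, Benjamini-Hochberg), beside 1.81%, 5.13% and 4.63% of all genes tested. Called lower were 1, 3 and 6, beside 0.928%, 6.55% and 1.91% of all genes tested. Ifit1bl1, a relative of Ifit1, was at 20.7, 24.2 and 21.6 CPM in CD4 control, 26.5, 26.5 and 32.99 CPM in CD4 ThpokAD and 165, 116 and 223 CPM in CD8 control. It was 7.57-fold higher in CD8 control than in CD4 control (adjusted p = 0.000121), while Ifit1 itself was not called. Slfn8, of the same family as Slfn2, was at 58.1, 54.6 and 53.8 CPM in CD4 control, 56.2, 71.3 and 57.1 CPM in CD4 ThpokAD and 155, 216 and 155 CPM in CD8 control. It rose 3.16-fold in CD8 control (adjusted p = 0.000396) and the CD4 groups overlapped (adjusted p = 0.772). Ly6a (Sca-1) was at 334, 355 and 284 CPM in CD4 control, 144, 152 and 141 CPM in CD4 ThpokAD and 325, 312 and 442 CPM in CD8 control. It fell 2.23-fold in CD4 ThpokAD against CD4 control (adjusted p = 0.00568) and 2.47-fold against CD8 control (adjusted p = 0.00155).

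Cd274 (PD-L1) and the chemokine Cxcl10 had the direction of Isg15 and Iigp1. Cd274 was at 285, 332 and 281 CPM in CD4 control, 183, 209.6 and 117 CPM in CD4 ThpokAD and 54.2, 49.03 and 64.5 CPM in CD8 control. Cxcl10 was at 12.4, 33.2 and 31.6 CPM in CD4 control, 19.9, 26.6 and 18.5 CPM in CD4 ThpokAD and 0.167, 2.52 and 1.26 CPM in CD8 control. Both fell in CD8 control against CD4 control (log2 fold change -2.42 and -4.3, adjusted p = 0.000179 and 0.009). The immunoproteasome subunit Psmb10 rose with Psmb8 and Psmb9 in CD8 control (log2 fold change 0.84, adjusted p = 0.00216). Ifitm10 is listed as a family relative of Ifitm1, and its induction by interferon was not examined. Unlike Ifitm1, it rose in CD8 control against CD4 control (log2 fold change 2.43, adjusted p = 0.000253). Ifitm10 also rose in CD4 ThpokAD against CD4 control (log2 fold change 1.99, adjusted p = 0.00291).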
